A study of Sus scrofa with 24 samples.

Results

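Extracellular proteases and their inhibitors were followed in pig aortic valve leaflets that had been stretched or left at rest. The genes were taken by name: a probe set of the array was a member if its only gene symbol in the platform annotation started with MMP, TIMP, ADAM (ADAMTS included) or SERPIN, and the collagen chaperone SERPINH1 was left out. This gave 55 probe sets of 36 genes, out of 23999 probe sets tested. Of the 36 genes 8 were matrix metalloproteinases, 4 were tissue inhibitors of metalloproteinases, 7 belonged to the ADAM family, 3 to the ADAMTS family and 14 to the serpins. A probe set is a group of short oligonucleotides that reads 1 transcript, and 11 of the genes were read by several. Such a gene is described by its probe set of highest mean over all arrays, and the others are named for the genes where a result turns on them. ADAMTS4, ADAMTS5 and ADAMTS9 were not found under these symbols and are not analysed here.

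Matrix metalloproteinases (MMPs) cut collagens, proteoglycans and other matrix proteins and are made as inactive precursors. Tissue inhibitors of metalloproteinases (TIMPs) block them in the extracellular space. ADAM proteins shed the outer parts of membrane proteins, ADAMTS proteins cut proteoglycans such as versican and aggrecan, and most serpins trap serine proteases such as plasmin, thrombin and elastase. In aortic valves this balance governs the turnover of collagen, elastin and proteoglycan layers, which resident fibroblast-like interstitial cells maintain.

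The tissue came from domestic pigs between 12 and 24 months old, obtained from an abattoir. A piece of 15 by 10 mm was cut from the middle of each cusp, and the pieces were randomised to 4 groups of 6. They were cyclic stretch in a tensile bioreactor with 5HT plus Fluox, cyclic stretch with no agents, static incubation with 5HT plus Fluox, and static incubation with no agents. All pieces were kept for 24 h at 37 C in the same medium with 10% fetal bovine serum and 50 mg/l ascorbic acid. 5HT is serotonin, and Fluox is not spelled out in the labels, nor is a dose given. No group received only 1 of the agents. Stretched pieces alone carried sutured loops and hung in the bioreactor, so the effects of stretch, suture and bioreactor cannot be told apart. The whole piece was used, so a change can come from fewer cells of a type or from less RNA per cell, which cannot be told apart. The labels call the samples biological replicates. Which pieces share an animal was not given, and p-values measure the spread between these samples.

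Each RNA was read on its own array, and values are log2 units of the authors' normalization, where 1 unit is a 2-fold difference. They ran between 1.12 and 15.5 on these arrays. Probe sets differ in brightness for reasons unrelated to abundance, so levels are compared between groups and never between genes. A mean under 4 in every group is called dim, since changes there are compressed. Genes are written as called, or as having risen or fallen, where limma gave a Benjamini-Hochberg adjusted p under 0.05 over all 23999 probe sets. With 6 arrays in a group, precision is limited by their number.

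Array measures and cell markers also moved with stretch. The difference between the 3′ and 5′ probe sets of GAPDH and EF1A, which widens in degraded RNA, was 2.64 ± 1.07 log2 in stretched and 0.82 ± 0.11 in static tissue with 5HT plus Fluox (SD, n = 6 each, exact permutation test, adjusted p = 0.00577 over 8 tests). Without agents it was 2.09 ± 0.71 and 0.77 ± 0.14 in the same order (exact permutation test, adjusted p = 0.00577). The level of the hybridisation controls, foreign transcripts that are spiked in before hybridisation, was 12.78 ± 0.33 in stretched and 11.52 ± 0.27 in static tissue with 5HT plus Fluox (exact permutation test, adjusted p = 0.00577). Without agents it was 12.32 ± 0.88 and 11.41 ± 0.50 (exact permutation test, adjusted p = 0.126). Endothelial markers were called lower for 7 of 13 genes with the agents and 10 of 13 without. Their mean ranged over arrays from 3.54 to 3.91 in stretched and 5.20 to 6.04 in static tissue with 5HT plus Fluox, and from 3.48 to 3.72 against 4.37 to 5.73 without agents. Leukocyte markers were lower for 5 of 11 genes in both comparisons, with 1 higher under the agents. Fibroblast markers were higher for 8 and lower for 2 of 11 in both, and all 6 cardiac muscle markers were dim. Over all probe sets 28.3% rose and 23.9% fell with the agents, and 29.4% rose and 23.1% fell without. The endothelial markers TIE1, KDR, FLT1, CLDN5, ESAM and NOS3 were dim in every group. Smooth muscle markers were higher for 3 of 4 genes with the agents (median change 3.34) and 4 of 4 without (median 2.72). The part of these differences in the results below was not tested. Values from models that hold the 3′ to 5′ measure or the hybridisation control level as a covariate stand beside most called members. They are not given for genes outside the members. The lowest 3′ to 5′ difference of a stretched array was 0.98, and the highest of a static array was 0.97. Since the tissues do not overlap in this measure, models that hold it compare them by extrapolation. A call kept or lost in those models is therefore limited evidence.

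The first question was what stretch did to these genes. With 5HT plus Fluox, 36 of 55 member probe sets were called, beside 52.2% of all probe sets tested. Of them 23 were higher in stretched than in static tissue, beside 28.3% of all, and 13 lower, beside 23.9%. Without agents 30 of 55 were called, beside 52.5% of all, with 19 higher, beside 29.4%, and 11 lower, beside 23.1%. The members' shares were 65.5% with the agents and 54.5% without, the second close to the whole array and the first somewhat above it. Whether members were called more often than other probe sets was not tested. A change of at least 2-fold was called for 23 members with the agents, beside 32.1% of all, and for 19 without, beside 28.6%. Counted by gene, 18 of 36 rose and 9 fell with the agents, and 14 rose and 8 fell without them.

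Arrays of the stretched and static groups did not overlap at all for 16 member probe sets above and 11 below with the agents, beside 41.9% of all probe sets in either direction, 23.7% above and 18.1% below. Without agents 10 lay above and 7 below, beside 20.5% of all, 12.2% above and 8.36% below. Direction went with brightness. Of the 29 member probe sets with a mean of at least 5 over all arrays, 7 rose and 13 fell with the agents, beside 64.1% of all such probe sets called, and 6 rose and 11 fell without, beside 57.7%. Of the 26 under 5, 16 rose with the agents, beside 40.9% of all such probe sets called, 13 rose without, beside 47.6%, and 0 fell in either comparison. Over all probe sets under 5, 3962 rose and 1054 fell with the agents, and 4468 rose and 1372 fell without them. Of all 11720 with a mean of at least 5, 2834 rose and 4677 fell with the agents, and 2599 rose and 4161 fell without.

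**Figure D1:**
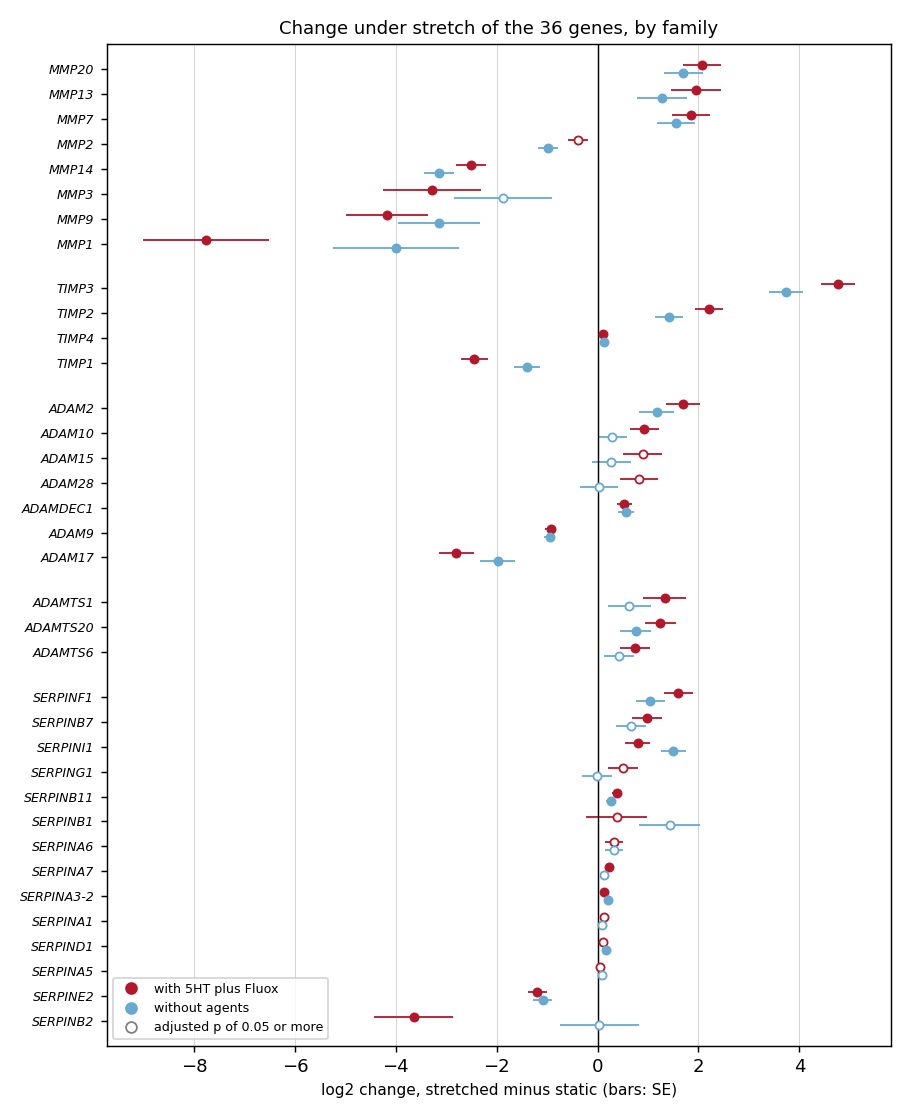
Log2 change of each of the 36 genes, stretched minus static tissue, with 5HT plus Fluox (red) and without agents (blue). Points are fitted changes from 6 against 6 arrays, bars are standard errors, and open points had an adjusted p of 0.05 or more. MMP1, MMP9, MMP14, TIMP1 and ADAM17 (Ssc.19668.2.S1_at) lie left of 0, while TIMP2 and TIMP3 lie right of it.

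Among the collagenases, MMP1 (probe set Ssc.16013.1.S1_at), which opens the triple helix of fibrillar collagen, was far above the bottom of the scale in static tissue and close to it after stretch with the agents. Its lowest, median and highest values were 2.22, 2.48 and 3.05 in stretched tissue with 5HT plus Fluox, against 7.39, 10.97 and 12.37 in static tissue with the agents. All 6 stretched arrays lay below every static one, and the log2 change was -7.77 (SE 1.26, limma adjusted p = 5.51e-05). Because the stretched values sit near the bottom of the scale, this change is compressed. Without agents MMP1 had 2.31, 7.20 and 12.07 in stretched tissue, against 8.07, 11.40 and 11.94 in static tissue. Those stretched arrays spread over nearly the whole scale. Replicate 1, at 12.07, lay above every static array, replicates 2 to 4 had 8.14, 7.74 and 6.66, and replicates 5 and 6 had 2.31 and 3.12. The change without agents was -3.99 (SE 1.26, limma adjusted p = 0.0132). It was no longer called when only those groups were fitted (limma adjusted p = 0.0567) or with array weights (-2.44, limma adjusted p = 0.0663). With the 3′ to 5′ measure in the model it was -2.42 (limma adjusted p = 0.264) without agents and -5.60 (limma adjusted p = 0.0376) with them, and with the hybridisation control level it was -1.07 (limma adjusted p = 0.447) and -3.73 (limma adjusted p = 0.0190). Replicate 1 of the stretched tissue without agents also had the lowest hybridisation control level of the stretched arrays, 10.89, and the lowest 3′ to 5′ difference, 0.98.

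Collagenase 3, MMP13 (Ssc.16053.1.A1_at), went the other way from a faint signal. It had 3.83, 4.88 and 6.70 (lowest, median and highest) in stretched tissue with 5HT plus Fluox, against 2.61, 3.31 and 3.46 in static tissue with the agents, without overlap. Its change was 1.96 (SE 0.49, limma adjusted p = 0.00300). Without agents the values were 2.60, 4.04 and 6.36 in stretched tissue, against 2.13, 3.31 and 3.60 in static tissue, with 5 of 6 stretched arrays above every static one. The other MMP13 probe set changed by 0.96 (limma adjusted p = 0.0214) with the agents and by 0.72 (limma adjusted p = 0.0728, not called) without. For the first, the change of 1.27 (SE 0.49, limma adjusted p = 0.0369) without agents was called, but the call was lost on leaving out replicate 5 (1.12, limma adjusted p = 0.0849) or 6 (0.86, limma adjusted p = 0.108) of the stretched tissue without agents, or replicate 1 (1.12, limma adjusted p = 0.0821) or 2 (1.09, limma adjusted p = 0.0865) of the static tissue without agents. With the 3′ to 5′ measure in the model the MMP13 change was 0.12 (limma adjusted p = 0.930) with the agents and -0.06 (limma adjusted p = 0.924) without them. The arrays with the highest MMP13, replicates 5 and 6 of both stretched groups, included the 3 arrays whose 3′ to 5′ difference was above 2.5.

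Stromelysin MMP3, which activates other MMPs and cuts proteoglycans, was read by 4 probe sets that did not go together. The pair with the larger signal range (Ssc.15927.2.S1_at and Ssc.15927.2.A1_at) was lower in stretched tissue with 5HT plus Fluox. Ssc.15927.2.S1_at had 4.96, 5.95 and 6.92 there, against 6.09, 9.48 and 11.48 in static tissue with the agents, a change of -3.28 (SE 0.98, limma adjusted p = 0.00894). Its groups overlapped, since 4 of 6 stretched arrays lay below every static one. Without agents it had 5.49, 8.15 and 11.06 in stretched tissue, against 7.95, 9.26 and 12.21 in static tissue, and the change of -1.87 (SE 0.98, limma adjusted p = 0.106) did not pass. Leaving out replicate 1 of that stretched group gave -2.51 (limma adjusted p = 0.0267). The call with the agents was lost with either covariate (-2.07, limma adjusted p = 0.396, and -1.13, limma adjusted p = 0.614). The other pair, Ssc.15927.1.S1_at and Ssc.15927.1.A1_at, had changes of 0.19 and 0.46 with the agents and 0.57 and 0.47 without, none of them called. Which pair better reads MMP3 cannot be decided from these files.

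Both gelatinases were present in static tissue, and MMP9 (Ssc.16790.1.S1_at), the gelatinase B of leukocytes and activated stromal cells, had the larger change. Its values were 2.56, 3.61 and 4.25 in stretched tissue with 5HT plus Fluox, against 7.36, 7.76 and 8.20 in static tissue with the agents. No array overlapped, and MMP9 fell by 4.18 on the log2 scale (SE 0.81, limma adjusted p = 0.000342). Without agents it had 2.11, 5.28 and 8.03 in stretched tissue, against 6.40, 8.32 and 9.99 in static tissue (change -3.15, SE 0.81, limma adjusted p = 0.00390). Replicates 1 to 3 of that stretched group were within the static range, at 6.94, 8.03 and 6.98, while replicates 4 to 6 were far below it, at 3.61, 2.11 and 3.53. The call without agents was lost with array weights (-1.24, limma adjusted p = 0.0777), and both calls were lost with the hybridisation control level as a covariate (-2.60, limma adjusted p = 0.0784 with the agents, and -2.01, limma adjusted p = 0.106 without). They kept their size and call with the 3′ to 5′ measure in the model (-4.24 and -3.19). Neutrophil and mast cell markers, among cells that store this enzyme, had 0 of 3 genes called. Only 3 of 7 listed markers were measured, and S100A9 and KIT were dim in every group, so this list shows little. Leukocyte markers were lower for 5 of 11 genes in both comparisons, with 1 higher under the agents. The part of such cells in the MMP9 change was not tested.

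Gelatinase A, MMP2 (Ssc.5713.1.S1_at), is made by resident fibroblasts. It had 10.43, 11.00 and 11.29 in stretched and 11.22, 11.96 and 12.28 in static tissue without agents, and fell by 0.98 on the log2 scale (SE 0.20, limma adjusted p = 0.000744). In 5 of 6 stretched arrays it lay below every static one. The call held with the 3′ to 5′ measure (-0.92, limma adjusted p = 0.0166) or the hybridisation control level (-0.85, limma adjusted p = 0.0145) in the model. With 5HT plus Fluox the values were 10.92, 11.34 and 11.70 in stretched and 11.11, 11.79 and 12.04 in static tissue, and the change of -0.39 (SE 0.20, limma adjusted p = 0.106) was not called. It was called on leaving out replicate 4 of the static tissue with the agents (-0.51, limma adjusted p = 0.0434). The interaction was not called, so a difference between the MMP2 changes is not shown.

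MMP14 (Ssc.734.1.S1_at) is the membrane-anchored protease that activates pro-MMP2 at the cell surface, in a complex with TIMP2. It fell in both comparisons with no overlap. Its values were 4.97, 5.81 and 6.19 in stretched tissue with 5HT plus Fluox, against 7.73, 8.17 and 8.70 in static tissue with the agents, a change of -2.51 (SE 0.30, limma adjusted p = 1.86e-06). Without agents they were 4.99, 5.78 and 6.23 in stretched and 7.57, 8.68 and 9.65 in static tissue, a change of -3.14 (SE 0.30, limma adjusted p = 1.45e-07). No stretched array reached any static one in either comparison, and the stretched groups covered the same range with and without the agents. With the covariates the changes stayed between -3.08 and -1.88, all called.

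**Figure D2:**
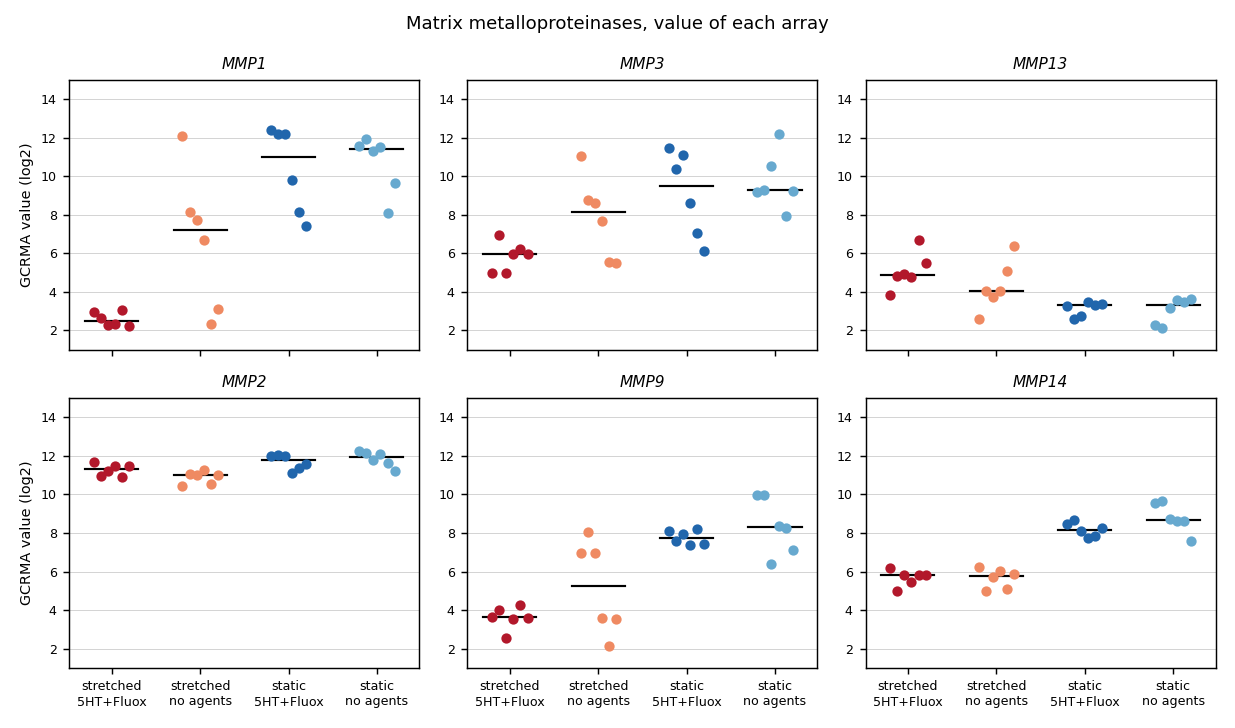
GCRMA log2 value of each array for 6 matrix metalloproteinases. Points run in replicate order, 6 per group, and lines are group medians. MMP14 is separated in both comparisons, while MMP1 in stretched tissue without agents spreads between 2.31 and 12.07.

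The last MMPs measured were matrilysin MMP7 (Ssc.548.1.S1_a_at), an epithelial protease, and enamelysin MMP20 (Ssc.14550.1.S1_at), known from developing tooth enamel. Both were dim in static tissue and rose. MMP7 had means of 4.86 ± 0.75 in stretched and 3.01 ± 0.38 in static tissue with 5HT plus Fluox (SD, n = 6 each) and changed by 1.85 there and by 1.56 without agents (SE 0.37 each, limma adjusted p = 0.000466 and 0.00227). MMP20 had 5.26 ± 0.53 and 3.19 ± 0.50 with the agents and changed by 2.07, and by 1.70 without them (SE 0.38 each, limma adjusted p = 0.000216 and 0.00143). With the 3′ to 5′ measure in the model none of these 4 calls held (changes between 0.46 and 1.08). With the hybridisation control level only the MMP20 call without agents held (0.72, limma adjusted p = 0.0291). Faint probe sets rose widely across the array, as the split by brightness above shows. In RefSeq's annotation of the pig assembly Sscrofa11.1 the genes MMP7, MMP20, MMP27, MMP8, MMP1, MMP3, MMP12 and MMP13 follow each other in this order. Its measured genes moved in both directions under stretch with the agents: MMP1 in the middle was lower, MMP7, MMP20 and MMP13 at the ends higher, and the MMP3 probe sets disagreed.

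The inhibitors of these proteases divided by gene. TIMP3 (Ssc.9661.1.S1_at), which stays bound to the matrix and also blocks ADAM17 and aggrecan-cutting ADAMTS proteins, rose most of all 36 genes. Its values were 8.71, 8.92 and 9.35 in stretched tissue with 5HT plus Fluox, against 3.54, 4.28 and 4.48 in static tissue with the agents. The change was 4.76 (SE 0.34, limma adjusted p = 2.71e-09), or 27.1-fold. The values without agents were 7.62, 8.29 and 8.89 in stretched tissue, against 2.74, 4.62 and 5.51 in static tissue, a change of 3.73 (SE 0.34, limma adjusted p = 7.15e-08). The groups were separated by more than 2 log2 units in both comparisons. The other TIMP3 probe sets, both dim in static tissue, rose too, by 3.38 and 2.74 with the agents and by 2.29 and 1.63 without. Neither covariate changed the TIMP3 call, with values between 3.67 and 4.75.

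TIMP2 (Ssc.1082.1.S1_at), the partner of MMP14, had 11.98, 12.40 and 12.65 in stretched and 9.62, 10.20 and 10.60 in static tissue with 5HT plus Fluox. No array overlapped, and it rose by 2.21 (SE 0.28, limma adjusted p = 3.29e-06). In tissue without agents it had 10.87, 11.68 and 12.21 in stretched and 9.57, 10.04 and 11.15 in static tissue, and rose by 1.41 (SE 0.28, limma adjusted p = 0.000489), with 5 of 6 stretched arrays above every static one. The other TIMP2 probe set, Ssc.11257.1.S1_at, rose by 1.00 (SE 0.27, limma adjusted p = 0.00481) with the agents and had a change of 0.39 (SE 0.27, limma adjusted p = 0.216) without them, so the probe sets disagree on the call there. With the covariates the changes of Ssc.1082.1.S1_at ran from 1.24 to 2.17, all called. The call of Ssc.11257.1.S1_at with the agents was lost with either covariate (0.76, limma adjusted p = 0.24, and 1.04, limma adjusted p = 0.0609).

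TIMP1 (Ssc.11784.1.S1_at), a soluble inhibitor that fibroblasts and macrophages induce in inflammation, went against TIMP2 and TIMP3. It had 10.74, 11.46 and 12.09 in stretched tissue with 5HT plus Fluox, against 13.87, 13.96 and 14.02 in static tissue with the agents, and fell by 2.44 on the log2 scale (SE 0.26, limma adjusted p = 4.66e-07). In pieces without agents it had 11.35, 12.68 and 13.47 in stretched tissue, against 13.71, 14.06 and 14.13 in static tissue, and fell by 1.40 (SE 0.26, limma adjusted p = 0.000308). All stretched arrays lay below all static ones in both. Static values were near the top of the range of these arrays, where signals are also compressed. With the covariates the change ranged from -1.71 to -0.75 and stayed called. TIMP4 (Ssc.16027.1.S1_at), the inhibitor of heart muscle, was dim in every group, between 2.09 and 2.37. Its called changes of 0.11 with the agents and 0.12 without (SE 0.04 each, limma adjusted p = 0.0289 and 0.0238) are shifts at the bottom of the scale, and the other TIMP4 probe set was not called in either comparison (0.03 and 0.05). They were lost with the covariates and with quantile normalization (0.03 in both, limma adjusted p = 0.393 and 0.372). They were also lost on leaving out replicate 6 of the stretched (0.10, limma adjusted p = 0.0581) or replicate 1 of the static tissue without agents (0.11, limma adjusted p = 0.0505). With the agents, leaving out replicate 2 of the stretched (0.10, limma adjusted p = 0.0656) or of the static group (0.11, limma adjusted p = 0.0597) lost the TIMP4 call.

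**Figure D3:**
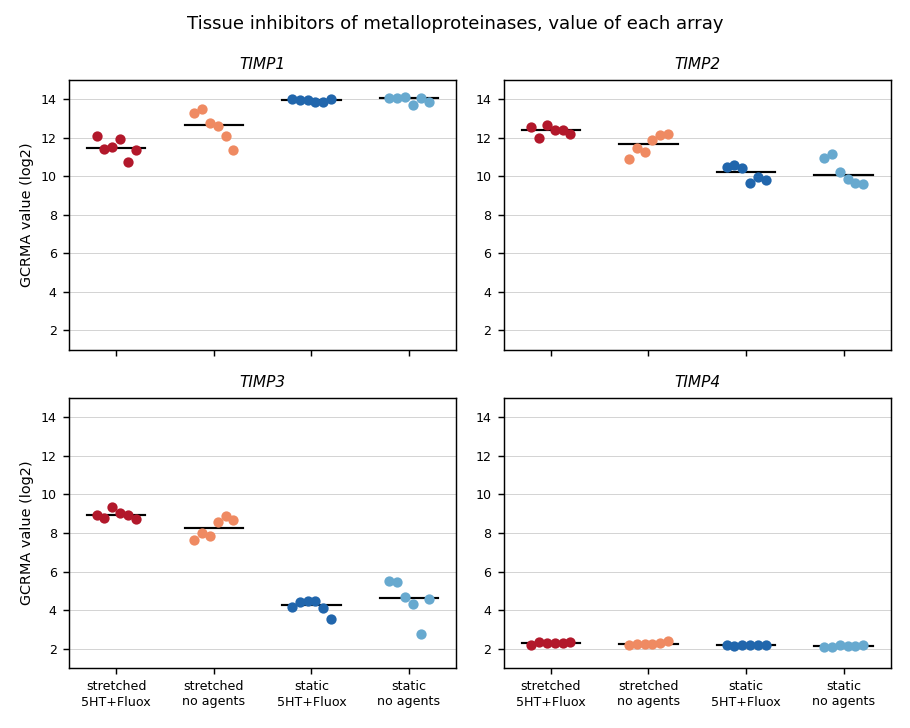
GCRMA log2 value of each array for the 4 tissue inhibitors of metalloproteinases, with group medians as lines and 6 arrays per group. TIMP3 and TIMP2 are higher and TIMP1 lower in both stretched groups, and TIMP4 lies near 2 in all.

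Of the ADAM sheddases, ADAM17, which releases tumour necrosis factor and growth factor receptor ligands from the cell surface, had the largest changes but also probe sets that contradict each other. The brightest, Ssc.19668.2.S1_at, had 8.22, 8.73 and 9.0 in stretched and 11.21, 11.50 and 11.56 in static tissue with 5HT plus Fluox. It fell by 2.80 on the log2 scale (SE 0.34, limma adjusted p = 2.34e-06). Among arrays without agents it had 8.09, 9.95 and 10.71 in stretched and 11.31, 11.44 and 11.84 in static tissue, and fell by 1.98 (SE 0.34, limma adjusted p = 0.000139). Its groups did not overlap in either comparison, and Ssc.19668.1.S1_at fell as well, by 3.97 and 3.25. The probe sets Ssc.16050.1.A1_at and Ssc.16050.1.S1_at were higher or not called. They had changes of 0.79 (SE 0.38, limma adjusted p = 0.0864) and 0.29 (limma adjusted p = 0.512) with the agents, and of 0.96 (SE 0.38, limma adjusted p = 0.0412) and 0.60 (limma adjusted p = 0.159) without. With the covariates the changes of Ssc.19668.2.S1_at stayed between -1.93 and -1.26, all called, and Ssc.19668.1.S1_at stayed called as lower too. The call of Ssc.16050.1.A1_at without agents was lost with either covariate (0.80, limma adjusted p = 0.252, and 0.19, limma adjusted p = 0.717). Since the probe sets differ, a direction for ADAM17 as a gene is not settled here.

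ADAM9 (Ssc.30817.1.A1_at), a widely made sheddase, fell by about the same amount in both comparisons. It had 10.77, 10.89 and 11.06 in stretched and 11.57, 11.77 and 12.25 in static tissue with 5HT plus Fluox, a change of -0.93 (SE 0.11, limma adjusted p = 1.34e-06). The values without agents were 10.54, 10.91 and 11.08 in stretched and 11.59, 11.85 and 12.01 in static tissue, a change of -0.95 (SE 0.11, limma adjusted p = 1.26e-06). Both calls held with either covariate. Of its other probe sets 2 fell as well, without a call under the covariates, and Ssc.16051.1.S1_at was not called (0.28 and 0.09). ADAM10 (Ssc.16052.1.S1_at), the sheddase of Notch and cadherins, was dim. Its mean was 3.99 in stretched and 3.07 in static tissue with the agents (change 0.92, SE 0.29, limma adjusted p = 0.0111, lost with either covariate), and its change without agents was 0.29 (SE 0.29, limma adjusted p = 0.380). ADAM2, a sperm surface protein, rose from dim static values by 1.69 (SE 0.34, limma adjusted p = 0.000505) with the agents and 1.17 (SE 0.34, limma adjusted p = 0.00870) without, and lost both calls with either covariate. ADAMDEC1, made by macrophages, was dim and rose by 0.53 and 0.56, calls that were also lost with either covariate, while ADAM15 and ADAM28 were not called in either comparison.

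ADAMTS1, which cuts versican and aggrecan, was the only bright gene of the ADAMTS family here. Ssc.16451.1.A1_at had 8.42, 10.59 and 11.41 in stretched and 8.16, 9.01 and 9.56 in static tissue with 5HT plus Fluox, and rose by 1.33 (SE 0.43, limma adjusted p = 0.0144). Replicate values of 5 of 6 stretched arrays were above every static one. In tissue without agents it had 8.97, 10.03 and 11.05 in stretched and 8.72, 9.37 and 10.14 in static tissue, and its change of 0.63 (SE 0.43, limma adjusted p = 0.211) was not called. Ssc.12365.1.A1_at, the other probe set, rose in both (1.43 and 1.33, limma adjusted p = 0.00823 and 0.0135). With the 3′ to 5′ measure in the model the changes of Ssc.16451.1.A1_at were larger, 2.77 (limma adjusted p = 0.000523) and 1.67 (limma adjusted p = 0.00662). Ssc.12365.1.A1_at kept both calls there (2.56 and 2.15). With the hybridisation control level Ssc.16451.1.A1_at had 1.93 (limma adjusted p = 0.0194) and 1.06 (limma adjusted p = 0.13, not called). In that model Ssc.12365.1.A1_at had 1.62 (limma adjusted p = 0.059, not called) and 1.47 (limma adjusted p = 0.0419). ADAMTS20 and ADAMTS6, both faint, had changes of 1.24 and 0.74 with the agents (limma adjusted p = 0.00249 and 0.0463) and of 0.76 and 0.42 without (limma adjusted p = 0.0426 and 0.232). None of these 4 changes was called with either covariate.

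Among serpins that act on plasminogen activators and thrombin, SERPINE2 (Ssc.16342.1.A1_at), also called protease nexin-1, fell evenly. It had 10.34, 10.69 and 10.93 in stretched and 11.49, 11.89 and 12.11 in static tissue with 5HT plus Fluox (change -1.19, SE 0.19, limma adjusted p = 4.51e-05). In pieces without agents it had 9.85, 10.96 and 11.35 in stretched and 11.57, 12.02 and 12.24 in static tissue (change -1.09, SE 0.19, limma adjusted p = 0.000144). No groups overlapped, and all covariate values were called, between -1.11 and -0.72. SERPINI1 (Ssc.6948.1.A1_at), or neuroserpin, an inhibitor of tissue plasminogen activator known from neurons, had 7.36, 7.64 and 8.27 in stretched and 6.32, 6.93 and 7.40 in static tissue with the agents. It rose by 0.80 (SE 0.25, limma adjusted p = 0.0125). Among arrays without agents it had 7.54, 8.38 and 9.17 in stretched and 6.22, 6.80 and 7.38 in static tissue, without overlap, and rose by 1.50 (SE 0.25, limma adjusted p = 9.84e-05). SERPINI1 stayed called in both comparisons with either covariate, with changes between 1.34 and 2.00.

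SERPINB2 (Ssc.7272.1.A1_at), the plasminogen activator inhibitor of activated macrophages and epithelia, was the serpin whose stretched groups differed most. It had 3.52, 5.33 and 6.69 in stretched tissue with 5HT plus Fluox, against 8.01, 8.71 and 9.99 in static tissue with the agents. All 6 arrays lay below, and it fell by 3.65 on the log2 scale (SE 0.78, limma adjusted p = 0.000798). That call was lost with either covariate (-2.70, limma adjusted p = 0.124, and -1.83, limma adjusted p = 0.181). The values without agents were 5.63, 9.48 and 11.63 in stretched tissue, against 8.35, 8.82 and 9.46 in static tissue, with a change of 0.03 (SE 0.78, limma adjusted p = 0.971, 95% interval -1.58 to 1.65). That average hides opposite arrays. Replicates 1 to 3 of the stretched tissue, at 11.63, 10.89 and 9.69, lay above every static array, replicate 4 had 9.27, and replicates 5 and 6, at 6.29 and 5.63, lay below every static one.

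Other bright serpins were SERPINF1, SERPING1 and SERPINB1. SERPINF1 (Ssc.10451.1.S1_at) encodes the pigment epithelium-derived factor, which blocks vessel growth and inhibits no protease. It had 12.04, 12.33 and 12.73 in stretched and 10.26, 10.77 and 11.36 in static tissue with 5HT plus Fluox, without overlap, and rose by 1.60 (SE 0.29, limma adjusted p = 0.000206). In tissue without agents it had 11.38, 11.95 and 12.48 in stretched and 10.00, 10.91 and 11.88 in static tissue and rose by 1.05 (SE 0.29, limma adjusted p = 0.00685), and both calls held with either covariate. SERPING1, the inhibitor of the first complement component, had changes of 0.50 (95% interval -0.12 to 1.12) with the agents and -0.01 (95% interval -0.63 to 0.61) without, neither called. SERPINB1 (Ssc.1303.1.S1_at), which inhibits neutrophil elastase, had 7.25, 10.74 and 11.50 in stretched and 7.70, 8.34 and 10.11 in static tissue without agents, just short of a call (1.43, SE 0.60, limma adjusted p = 0.0519), and a change of 0.38 (SE 0.60, limma adjusted p = 0.600) with the agents. Without agents it was called with the 3′ to 5′ measure (2.63, limma adjusted p = 0.00669) and with the hybridisation control level (2.70, limma adjusted p = 0.000717) in the model. With the agents those models gave 2.05 (limma adjusted p = 0.0768) and 2.14 (limma adjusted p = 0.0140). Stretched replicates 1 to 4 without agents (11.23, 11.50, 11.14 and 10.34) lay above every static array, and replicate 6 (7.25) lay below. The other SERPINB1 probe sets were not called. Ssc.1303.2.A1_at changed by 0.65 without agents and -0.58 with them, and the faint Ssc.1303.3.A1_at by -0.08 and 0.05. Under the covariates Ssc.1303.2.A1_at was called higher without agents (2.73 and 2.53), but not with them (2.29 and 2.01).

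The remaining 8 serpins were faint. SERPINA1 (alpha-1-antitrypsin), SERPINA3-2, SERPINA5, SERPINA6, SERPINA7, SERPIND1 (heparin cofactor II) and SERPINB11, of which most are made by liver, were dim in every group. Their changes in the described probe sets ran from 0.05 to 0.38 with the agents and from 0.08 to 0.32 without, which are shifts at the bottom of the scale. SERPINA3-2, SERPINA7 and SERPINB11 passed the test with the agents, and SERPINA3-2, SERPINB11 and SERPIND1 without them. The second SERPIND1 probe set was not called without agents (0.07), and the second of SERPINA5 was called there (0.18), unlike the first (0.08). SERPINB7, known from kidney and skin, had 3.21, 3.90 and 5.58 in stretched and 3.01, 3.05 and 3.60 in static tissue with 5HT plus Fluox, and its change of 0.98 (SE 0.30, limma adjusted p = 0.00978) was lost with either covariate.

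**Figure D4:**
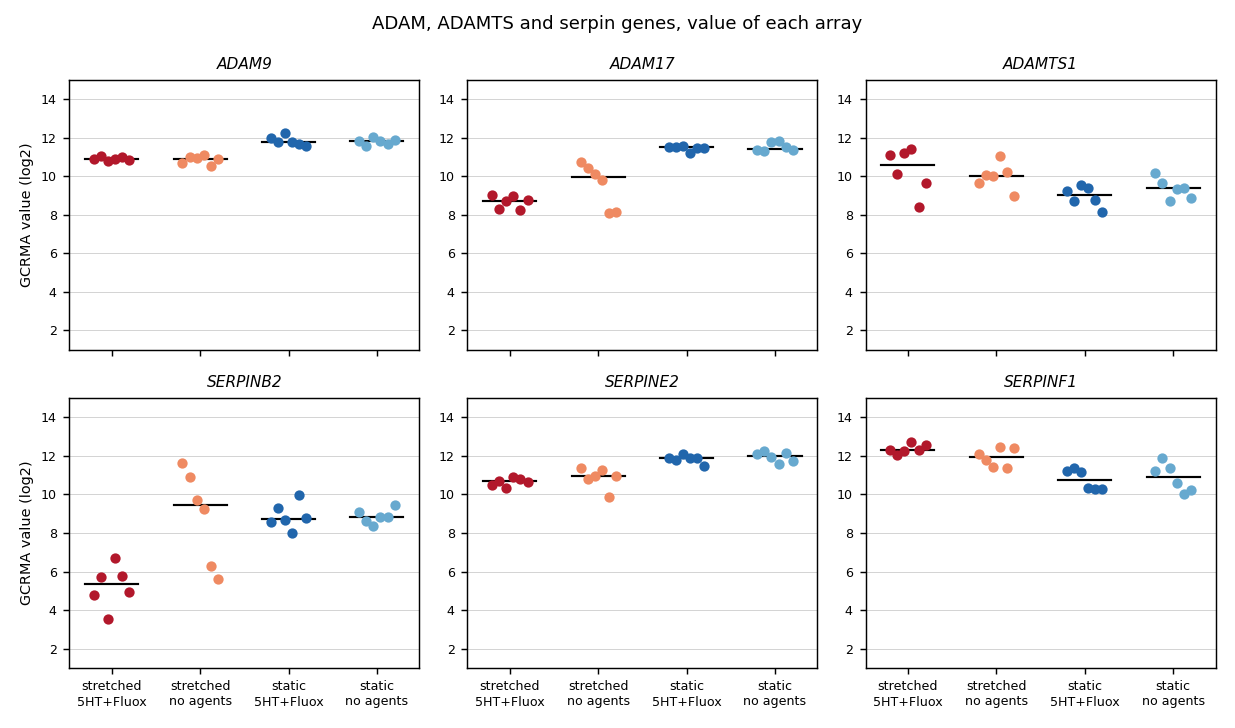
GCRMA log2 value of each array for ADAM9, ADAM17 (Ssc.19668.2.S1_at), ADAMTS1, SERPINB2, SERPINE2 and SERPINF1, with group medians as lines and 6 arrays per group. SERPINB2 spreads between 5.63 and 11.63 in stretched tissue without agents, and SERPINE2 and ADAM9 are lower in both stretched groups.

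Across members, the stretched arrays without agents were the least alike. Among the 29 member probe sets with a mean of at least 5 over all arrays, the median SD within a group was 0.43 in stretched tissue with 5HT plus Fluox and 0.69 in stretched tissue without agents. It was 0.41 in static tissue with 5HT plus Fluox and 0.56 in static tissue without agents. Over all 11720 such probe sets it was 0.51, 0.73, 0.29 and 0.40 in the same order. In stretched tissue without agents 11 of the 29 had an SD above 1, beside 26.8% of all probe sets of that brightness. With 5HT plus Fluox it was 5 in stretched tissue, beside 7.51%, and 5 in static tissue, beside 1.8%. In static tissue without agents it was 8, beside 6.46%. The 5 in static tissue with the agents were MMP1 and the MMP3 probe sets, which were also among these 8. The static counts therefore rest largely on repeated probe sets of the same gene. In stretched tissue without agents, MMP1, MMP9, SERPINB2 and the falling MMP3 and ADAM17 probe sets had their lowest values in replicate 5 or 6. The other MMP3 probe sets were lowest there in replicate 4 (Ssc.15927.1.S1_at, 6.80) and replicate 2 (Ssc.15927.1.A1_at, 6.27). The hybridisation control level was highest in replicates 5 and 6, at 13.30 and 13.15, against 10.89 to 12.31 in replicates 1 to 4. Only 2 of all stretched arrays, at 10.89 and 11.96, were about as low in this level as the static arrays, which reached up to 11.96, so stretched and static tissue can hardly be compared at equal levels. Static arrays varied among themselves too. For MMP1, replicates 4 to 6 with 5HT plus Fluox had 9.78, 8.16 and 7.39, against 12.17 to 12.37 in replicates 1 to 3. Replicates 5 and 6 without agents had 8.07 and 9.64, against 11.30 to 11.94 in replicates 1 to 4.

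**Figure D5:**
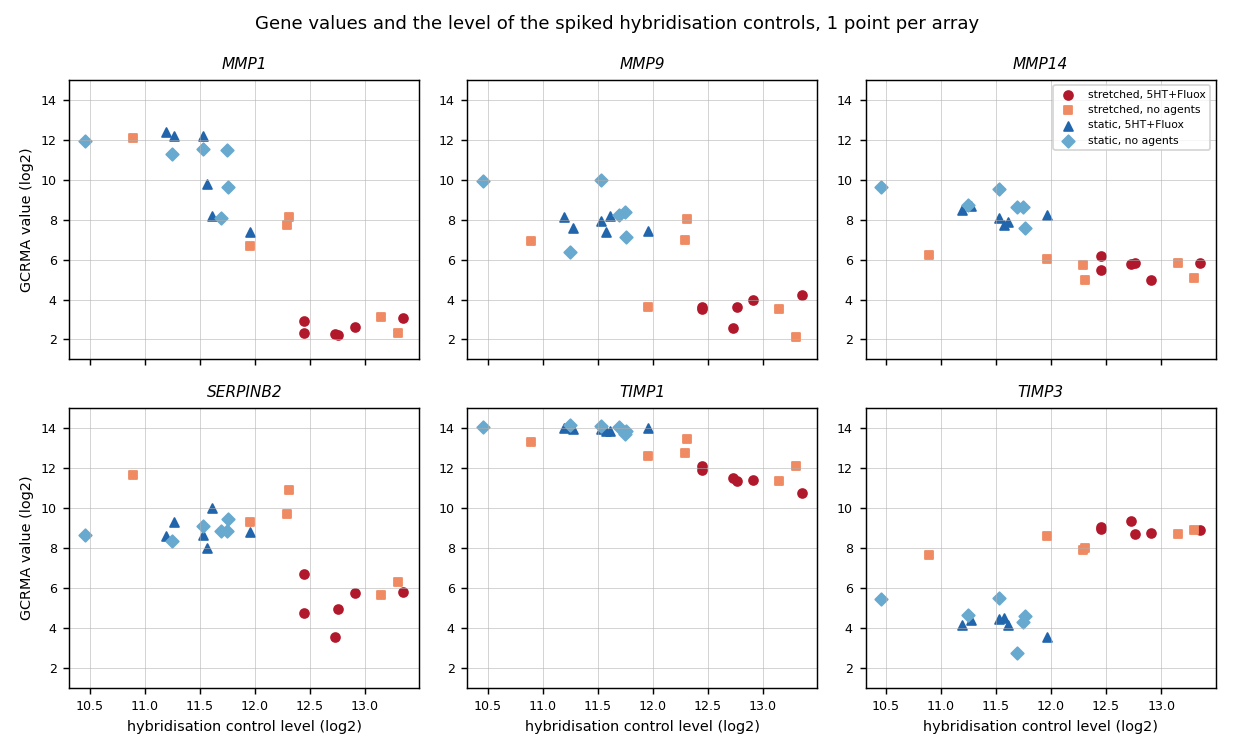
GCRMA log2 value of 6 genes (vertical axes) against the level of the hybridisation controls (horizontal axes, log2), 1 point per array, in 4 groups of 6. Low MMP1 and SERPINB2 values in stretched tissue lie at high control levels, while TIMP3 and MMP14 separate all stretched from all static arrays.

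The second question was what 5HT plus Fluox did. In static tissue the agents changed 0 of 55 member probe sets by limma, beside 0.00417% of all probe sets, and 0 of 55 had even an unadjusted p under 0.05. Among the 36 genes the changes ran from -0.62 (MMP3) to 0.27, and the 95% interval lay within 1 log2 unit of 0 for 26 of them. For MMP1 it ran from -2.94 to 2.28, so a change of several fold in either direction could not be seen there.

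In stretched tissue the agents also changed 0 of 55 by limma, beside 0.0583% of all probe sets, and 10 of 55 had an unadjusted p under 0.05, while 3555 of the 23999 did. The smallest p belonged to SERPINB2, with 3.52, 5.33 and 6.69 in stretched tissue with 5HT plus Fluox, against 5.63, 9.48 and 11.63 in stretched tissue without agents (change -3.67, SE 0.78, limma adjusted p = 0.0763). TIMP1 followed, with 10.74, 11.46 and 12.09 against 11.35, 12.68 and 13.47 (change -1.09, SE 0.26, limma adjusted p = 0.0867), and MMP1 had a change of -4.10 (SE 1.26, limma adjusted p = 0.137). In all 3 genes the groups overlapped, and the values with the agents were like those of replicates 5 and 6 without them. The count of 0 rested on single arrays, as did the count over the whole array. Without replicate 6 of the stretched tissue without agents it was 6, beside 6.86% of all probe sets, and without replicate 5 it was 5, beside 3.43%. Without replicate 4 it was 1, beside 0.796%, and without replicate 2 of the stretched tissue with the agents it was also 1, beside 0.675%. Leaving out replicate 6 gave -1.33 for TIMP1 (limma adjusted p = 0.00617), -4.81 for MMP1 (limma adjusted p = 0.0276) and -1.17 for ADAM17 (limma adjusted p = 0.0286). Leaving out replicate 5 gave -1.19 for TIMP1 (limma adjusted p = 0.0268) and -4.97 for MMP1 (limma adjusted p = 0.0293). It also gave -1.18 for ADAM17 (limma adjusted p = 0.0379) and 0.94 for ADAM10 (limma adjusted p = 0.0347). Both ADAM17 values are from Ssc.19668.2.S1_at. With all arrays in the fit the agents changed the other ADAM17 probe sets by -0.81 (Ssc.19668.1.S1_at), 0.01 (Ssc.16050.1.A1_at) and -0.35 (Ssc.16050.1.S1_at), none called.

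The interaction asks whether the stretch change differed with the agents, and limma called 0 of 55 members, beside 0% of all probe sets. At an unadjusted p under 0.05 there were 4 members, while 1791 of the 23999 had one. They were SERPINB2 (-3.68, SE 1.10, limma adjusted p = 0.632), TIMP1 (-1.05, SE 0.37, limma adjusted p = 0.632), TIMP3 (1.03, SE 0.48, limma adjusted p = 0.662) and MMP1 (-3.77, SE 1.78, limma adjusted p = 0.662). With the arrays weighted by their quality, limma called 8 members, beside 9.06% of all probe sets. Among them were SERPINB2 (-4.73, limma adjusted p = 0.00161), TIMP1 (-1.21, limma adjusted p = 0.00295) and MMP9 (-3.27, limma adjusted p = 0.0185). MMP1 (-5.62, limma adjusted p = 0.0310) and the ADAM17 probe set Ssc.19668.2.S1_at (-1.20, limma adjusted p = 0.00517) were also called. Whether the stretch changes of these genes differ with the agents therefore depends on how the arrays are weighted. The comparisons of the agents use the same stretched and static arrays as the comparisons of stretch, so their values are tied to each other.

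Other genes of extracellular proteolysis were followed beside the members. Of 23 measured, 6 rose and 10 fell under stretch with 5HT plus Fluox (median change -0.64), 6 rose and 9 fell without agents (median -0.58), and 0 were called for the agents in either tissue. Over all probe sets the median changes were 0.07 and 0.08. Of all probe sets 28.3% rose and 23.9% fell with the agents, and 29.4% rose and 23.1% fell without. Among the cathepsins of the list CTSB, CTSH, CTSK and CTSS fell in both comparisons, while CTSD and CTSZ were not called. CTSH averaged 10.35 in stretched and 11.97 in static tissue with the agents (change -1.62, SE 0.16, limma adjusted p = 2.09e-07) and changed by -1.82 without. CTSS, the cathepsin of macrophages, had changes of -2.42 with the agents (limma adjusted p = 0.000169) and -1.43 without (limma adjusted p = 0.0111). The elastin- and collagen-cutting CTSK fell by 0.43 and 0.62. PLAU, the urokinase that SERPINB2 and SERPINE2 inhibit, was not called (-0.92, SE 0.95, limma adjusted p = 0.417 with the agents, and 0.49, limma adjusted p = 0.661 without). PLAT, the tissue plasminogen activator, fell with the agents (-1.72, SE 0.44, limma adjusted p = 0.00329) and had a change of -0.18 (limma adjusted p = 0.737) without. BMP1, which cuts procollagen ends, fell by 1.99 and 2.44, and fibroblast activation protein FAP rose by 2.12 and 1.61 (limma adjusted p = 0.00386 and 0.0213). TFPI2, a matrix-bound inhibitor of plasmin, fell by 0.86 and 0.89.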

How the data were processed

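Expression of 24 samples was measured on Affymetrix porcine arrays. Values were the log2 probe set summaries the authors deposited, made with Partek and GCRMA per the submitters' processing notes, versions not given in the sources used here, and were used as deposited. Of the 24123 probe sets 124 controls were left out. The platform annotation gave 10069 probe sets 1 symbol, 198 several and 13732 none, and all 36 member genes matched RefSeq (Sscrofa11.1) by gene ID. Members and gene lists were chosen with earlier results of these data known.

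All 24 arrays entered 1 limma fit (version 3.58.1 under R 4.3.3) with a mean for each of the 4 groups, eBayes and 5 two-sided contrasts, each adjusted over 23999 probe sets. SE is limma's. Genes were named by rule: in each pairwise comparison the 10 largest rises and falls among called genes that averaged 5 or more in whichever group was higher, for the interaction the 4 of smallest p where none was called, and a fixed set of well known members. Others were named after their values were seen. Alternatives were set with the tests, except the hybridisation control level as a covariate, which was chosen after seeing the data. For array measures, exact permutation tests (two-sided) were run, and the smallest p they allow is 0.00216. The fit was tested on simulated data for stretch without agents, with 50 shifted probe sets. It recovered 18% of shifts of 0.5 log2, 58% of 1, 82% of 2 and 100% of 4, with 5 other calls. Small changes can therefore be missed.

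The authors' deposited table of a two-way analysis of variance, with adjusted p-values and signed fold changes as a score, called 38 members for stretch with the agents and 32 without, 36 and 30 of them also called here, and 0 in both agent comparisons.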

Additional observations from a re-analysis of the deposited data

Results flagged for a closer look

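Among the named genes 64 groups of 6 arrays were examined for a single array far from the rest, and 2 had one, fewer than the about 1 in 20 that chance gives. ADAM17 (Ssc.19668.2.S1_at) had its lowest static value with 5HT plus Fluox in replicate 4, at 11.21, where the nearest other array had 11.44. SERPINE2 had its lowest value in stretched tissue without agents in replicate 5, at 9.85, with the nearest other array at 10.82. Both genes kept their stretch calls on leaving out any single array.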

How the results depend on the processing

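Counts of called members are given with the agents first and without agents second. They were 36 and 30 as reported, 23 and 19 where a call also needed a 2-fold change (beside 32.1% and 28.6% of all probe sets), 16 and 18 with the 3′ to 5′ measure in the model (15.5% and 21.6% of all), and 15 and 18 with the hybridisation control level as a covariate (15.9% and 22.3%), chosen after seeing the data. With dim probe sets left out they were 23 and 20 of 32 (64.5% and 58.3%). Centring arrays on their brighter probe sets put the median change over the array at 0.32 and 0.31, against 0.07 and 0.08 as deposited, and gave 35 higher with 13 lower and 29 higher with 10 lower (70.6% and 66.3% of all called); quantile normalization gave 15 with 12 and 13 with 10 (43.3% and 40.9%). The reversed MMP13 change without agents was -0.0616 on the log2 scale with the 3′ to 5′ covariate. With the replicate number as a block the counts were 35 and 32, and 0 for the agents and the interaction. No call of a named gene changed under this block. Over the whole array it cut the calls for the agents in stretched tissue to 1, against 14. The labels do not say what a number shares. Same-numbered arrays deviated together with a correlation over 0.1 in 1 and 3 of 6 pairs for stretch and in 5 of 6 pairs for each agent comparison, where the median was 0.49 in static and 0.30 in stretched tissue, so the numbers were not taken as pairs but may mark something shared within stretched and within static tissue. Leaving out 1 array gave 33 to 39 and 26 to 35 calls for stretch, 0 to 6 for the agents in stretched tissue, and 0 for the agents in static tissue and the interaction. For the agents in stretched tissue array weights gave 13 calls (beside 15.6% of all) and leaving out the 3 arrays above 2.5 gave 2 (1.34%). Array weights gave 8 interaction calls (beside 9.06%). The cause of these shifts was not tested. Fitting only the groups compared could not be done for the interaction, which uses all 4.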

Other observations

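Substrates of these proteases were mostly higher in stretched tissue. Of 10 measured, 7 rose and 1 fell with 5HT plus Fluox (median change 1.41), and 6 rose and 1 fell without agents (median 1.01). Over all probe sets 28.3% rose and 23.9% fell with the agents, and 29.4% rose and 23.1% fell without. The proteoglycan ACAN, cut by ADAMTS proteins, averaged 7.44 in stretched and 2.66 in static tissue with the agents (change 4.78, SE 0.64, limma adjusted p = 7.42e-06) and changed by 3.04 without. The small proteoglycans BGN, LUM and DCN rose by 2.74, 2.54 and 2.08 with the agents and by 1.70, 2.17 and 1.62 without. COL3A1 fell by 2.79 and 3.04. DCN, LUM and COL3A1 also stand in the fibroblast marker list. VCAN, which ADAMTS1 cuts, was not called (0.46 and -0.18).

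Genes known to induce MMPs did not move one way. Of 12 measured, 4 rose and 3 fell with the agents, and 3 rose and 3 fell without. These counts are close to the shares of all probe sets. Of those 28.3% rose and 23.9% fell with the agents, and 29.4% rose and 23.1% fell without. JUN and FOS, the parts of the AP-1 factor, rose by 2.42 and 1.67 with the agents and by 2.22 and 1.50 without. IL6 averaged 10.17 in stretched and 12.70 in static tissue with the agents (change -2.54, SE 1.04, limma adjusted p = 0.0452) and had a change of -0.78 (limma adjusted p = 0.520) without. TNF, the substrate of ADAM17, rose by 1.78 and 2.76 from dim static values. IL1B was not called in either comparison (-1.25 and -0.32).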
